A study of Mus musculus with 22 samples.

Results

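The genes described here build and run mitosis, the division of the duplicated chromosomes between daughter cells, and the spindle checkpoint that holds this division back until every chromosome is attached. They are 46 gene symbols grouped by that function, and the list was chosen with earlier results of these data known. The genes were found by an exact match of the gene symbol given in each row of the expression tables. Of the 46 genes, 45 had a row, among 16266 genes measured in all 4 RNA libraries. The exception was Kif4, a chromosome-arm kinesin, because the rows cover chromosomes 1 to 19; it is not analysed here. The 45 genes lie on 15 chromosomes, with at most 6 on any of them.

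RNA was sequenced from primary mouse embryonic fibroblasts (MEFs) of 2 genotypes, Lsh KO and wild type (WT). Lsh is the protein of Hells, an SNF2-type chromatin remodeller needed for normal DNA methylation, and the Lsh KO embryos were selected by genotyping. Each genotype had 2 libraries, called KO1 and KO2, and WT1 and WT2, after genotype and replicate number. Both genotypes shared the C57BL/6 strain, the source (the body of E13.5 embryos), the culture medium with serum and passage 3 to 4, and no treatment is given in the labels. Such cultures are not purified, so they can hold other cells of the embryo body beside fibroblasts. The labels do not say which stretch of Hells was deleted, whether a library came from a single embryo, or whether libraries of like number shared a litter, a culture day or a run. Another 18 samples of the series, made from chromatin, are not analysed here.

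Mitosis is entered when Cdk1 bound to A and B cyclins is switched on by Cdc25 phosphatases, with Plk1 and the Aurora kinases acting on centrosomes, spindle and chromosomes. Unattached kinetochores, the protein plates on centromeres that grip the spindle microtubules, recruit Bub and Mad proteins, which restrain Cdc20. Once that restraint ends, Cdc20 and the anaphase-promoting complex mark securin and B cyclins for destruction, separase opens cohesin, and the cell is cleaved at the midzone. Most of these genes are transcribed late in the cell cycle, through promoters that hold a cell cycle genes homology region (CHR) and CCAAT boxes. The CHR is bound by the DREAM complex in resting cells and by the B-Myb-MuvB and Foxm1 proteins in dividing cells, and CCAAT boxes are bound by NF-Y. Only dividing cells carry much of these transcripts, so in bulk RNA fewer dividing cells and less RNA per dividing cell cannot be told apart.

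The promoter letters below are shown because many of these genes, though not all, share this architecture. RefSeq promoter windows (build GRCm38.p6, 250 bases before to 50 bases after the transcription start) were found for 37 of the 45 genes. Both strands were searched for the CHR, spelled TTTGAA or TTCGAA, and for the CCAAT box, spelled CCAAT; in the printed strand a reversed CHR reads TTCAAA and a reversed CCAAT box reads ATTGG. A CHR and a CCAAT match overlapped in 0 windows of these genes. The 8 sequences are the 150 bases before the start, 5' to 3' on the strand of the gene, for the most abundant of the genes whose window held a CHR. Capitals mark CHR and CCAAT matches.
Ube2c (chr2:164769779-164769928, plus strand): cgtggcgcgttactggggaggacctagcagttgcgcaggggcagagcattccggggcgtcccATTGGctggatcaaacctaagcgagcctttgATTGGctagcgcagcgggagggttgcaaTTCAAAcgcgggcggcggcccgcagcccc
Bub3 (chr7:131560220-131560369, plus strand): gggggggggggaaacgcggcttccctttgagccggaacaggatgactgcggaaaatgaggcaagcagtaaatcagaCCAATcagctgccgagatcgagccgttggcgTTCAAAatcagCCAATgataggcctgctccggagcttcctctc
Mki67 (chr7:135716380-135716529, minus strand): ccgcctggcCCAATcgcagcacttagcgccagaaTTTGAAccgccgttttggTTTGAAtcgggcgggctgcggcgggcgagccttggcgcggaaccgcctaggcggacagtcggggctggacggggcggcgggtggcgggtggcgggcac
Prc1 (chr7:80294326-80294475, plus strand): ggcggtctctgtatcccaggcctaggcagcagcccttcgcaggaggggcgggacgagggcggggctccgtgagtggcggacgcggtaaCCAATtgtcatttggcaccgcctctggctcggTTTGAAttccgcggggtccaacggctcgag
Cenpa (chr5:30666736-30666885, plus strand): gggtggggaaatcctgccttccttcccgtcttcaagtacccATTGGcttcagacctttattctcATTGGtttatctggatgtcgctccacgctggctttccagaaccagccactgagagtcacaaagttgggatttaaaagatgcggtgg
Cdc20 (chr4:118437344-118437493, minus strand): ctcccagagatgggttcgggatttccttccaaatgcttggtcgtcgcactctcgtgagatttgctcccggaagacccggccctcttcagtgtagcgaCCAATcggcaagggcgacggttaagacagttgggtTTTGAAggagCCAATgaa
Aurka (chr2:172370571-172370720, minus strand): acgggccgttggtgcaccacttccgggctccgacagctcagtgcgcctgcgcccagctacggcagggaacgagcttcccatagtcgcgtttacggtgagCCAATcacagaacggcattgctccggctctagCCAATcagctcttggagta
Plk1 (chr7:122159285-122159434, plus strand): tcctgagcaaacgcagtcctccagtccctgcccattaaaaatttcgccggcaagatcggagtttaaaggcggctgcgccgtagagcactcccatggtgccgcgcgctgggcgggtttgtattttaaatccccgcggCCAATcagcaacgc

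In Ube2c the CHR began 29 bases before the start, in Cdc20 18 bases before it, and in Bub3 43 bases before it, with CCAAT boxes nearby in each. Mki67 had a pair of CHR matches, the nearer beginning 98 bases before the start, and in Prc1 the match began 30 bases before the start shown. In Cenpa, Aurka and Plk1 the CHR lay past the start, from bases 16, 32 and 30 after it, so the printed stretches show only their CCAAT boxes. Bub3 and Prc1 have 2 annotated starts, and the window with the CHR inside the printed stretch is the one shown. A match is a run of letters and not a measured binding site.

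The CHR was found in 29 of the 37 genes (78.4%), against 15.7% of 7918 genes tested for expression and with a window, and 21.7% of all 27025 genes of the promoter table. CCAAT was found in 28 of the 37 (75.7%), against 43.05% of the genes tested and 41.1% of the table. Both motifs together were found in 67.6% of the 37 genes, against 7.74% of the genes tested and 9.65% of the table. A CHR lay within 50 bases of the start, on either side, in 26 of the 37 genes, and before the start in 18. No share over all genes was worked out for these positions.

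**Figure D1:**
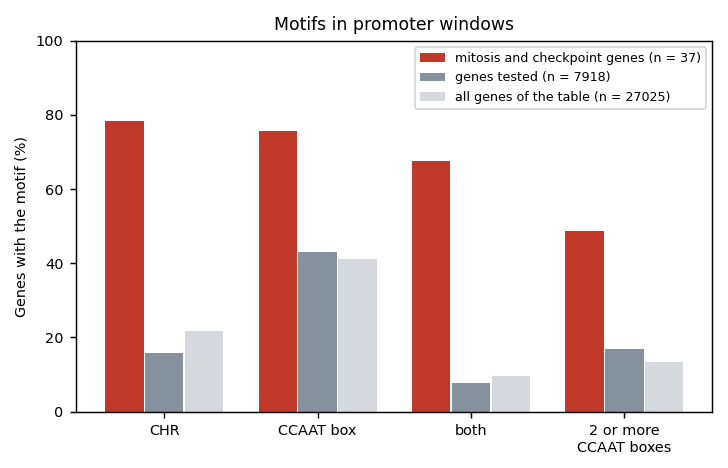
Share of genes whose 300-base promoter window held a CHR, a CCAAT box, both, or 2 or more CCAAT boxes (percent), for the 37 mitosis and checkpoint genes with a window, the 7918 genes tested for expression with a window and all 27025 genes of the promoter table. The bar for both motifs stands at 67.6% for the mitosis and checkpoint genes and at 7.74% for the genes tested.

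The libraries were measured as RPKM (reads divided by transcript length in kilobases and by M, mega, of mapped reads), a scale per length on which levels of different genes were set side by side. They held 122.5 M and 136.1 M mapped reads in KO1 and KO2, and 132.2 M and 176.6 M in WT1 and WT2. At 1 RPKM a transcript of 1 kilobase then has a counting error of 9.04% in KO1 and 7.53% in WT2, which bound the 4 libraries. Hells, the targeted gene, was at 0.430 and 0.550 RPKM in KO1 and KO2, against 0.865 and 1.06 RPKM in WT1 and WT2, lower in both KO libraries (log2 change -0.56, SE 0.34; limma adjusted p 1 with genotype alone in the model and 0.20 after replicate number was added). Actb, an abundant cytoskeletal gene, was at 1825 and 1228 RPKM in KO1 and KO2, against 2306 and 1492 RPKM in WT1 and WT2. Gapdh, a glycolytic gene that cells use throughout, was listed at only 0.298 and 0.179 RPKM in KO1 and KO2, against 0.1597 RPKM in WT1, and at 0 in WT2. A value at or near 0 can thus be a failed estimate, which limits comparisons of levels between genes.

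KO was set against WT to see how these transcripts stand in Lsh KO cells. Added up, the 45 mitosis and checkpoint genes came to 98.9 and 210.5 RPKM in KO1 and KO2, against 187.6 and 250.02 RPKM in WT1 and WT2. KO1 was the lowest of the 4 libraries for 45 of the 45 genes, as it was for 42.1% of all genes tested, and WT2 was the highest for 32 of them, as it was for 34.9% of all genes tested. On the deposited RPKM, KO2 lay above WT1 for 34 of the 45 genes, so on that scale the genotypes overlapped for most of them. No share over all genes was worked out for that count, and with rescaled libraries more of the genes separated, as given below. KO2 lay below WT2 for 35 of the 45 genes, against 47.3% of all genes tested.

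Within replicate 1 the median ratio of KO1 to WT1 was 0.508, from 0.369 for Kif2c to 0.881 for Bub3. Within replicate 2 the median ratio of KO2 to WT2 was 0.882, from 0.583 for Pttg1 to 1.18 for Cenpf. Of the 45 genes, 44 reached 0.5 RPKM in at least 2 libraries and were tested on log2(RPKM + 0.5), a scale that understates the change of low genes; the exception was Ttk. All 44 were lower in KO1 than in WT1, a difference shown by 61.6% of the 11147 genes tested. Of the 44, 34 were lower in KO2 than in WT2, against 47.3% of the genes tested, and the same 34 genes were lower within both replicate numbers, against 31.4%. None of the 44 was higher within both numbers, against 22.5%. A difference of at least 0.5 on the log2 scale below WT was seen in 37 genes within replicate 1 (6.02% of the genes tested) and in 4 within replicate 2 (4.15%), the 4 being Plk1, Pttg1, Ccnf and Ube2c.

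The difference below WT was larger within replicate 1 than within replicate 2 for 43 of the 44 genes, against 58.6% of the genes tested, and the exception was Pttg1. The median log2 difference was -0.74 for KO1 minus WT1 and -0.16 for KO2 minus WT2, and over all genes tested it was -0.07 and 0.02. Across the 44 genes, which share their libraries and are not independent, the size of one difference was only loosely related to the other (Pearson's r 0.26, Spearman's rho 0.26), as it was over all genes tested (Pearson's r 0.27). Both KO libraries were below both WT libraries for 10 of the 44 genes, against 7.32% of the genes tested. These 10 were Cdk1, Ccnf, Aurka, Bub3, Cenpe, Tpx2, Cdc20, Ube2c, Prc1 and Foxm1, and after rescaling of the libraries they were more, 22 with median-ratio scaling (7.71% of the genes tested) and 24 with quantile normalization (8.91%). Without KO2 the count was 45 of 45, and without WT1 it was 35. Separation is easier to reach with a library fewer, and no share over all genes was worked out for these counts. They cannot be set against the 7.32%.

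**Figure D2:**
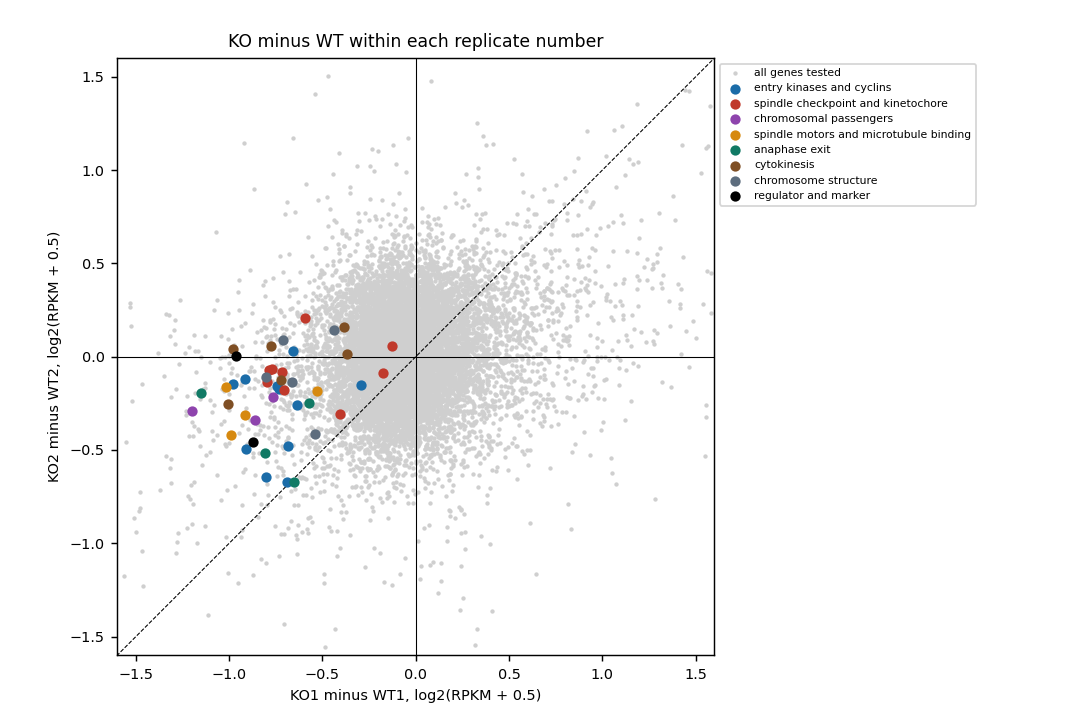
KO minus WT difference within replicate 1 (horizontal) and within replicate 2 (vertical), on log2(RPKM + 0.5), for the 44 mitosis and checkpoint genes tested, coloured by role, and for all 11147 genes tested in grey. The dashed line marks equal differences, 82 grey points lie beyond the limits of 1.6, and all 44 coloured points lie left of 0, with 34 of them also below 0.

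None of the 44 genes passed limma in either model on the deposited RPKM. In limma with genotype as the only term, 0 of the 44 genes and 0.0% of all genes tested passed an adjusted p of 0.05, and an unadjusted p below 0.05 was reached by 0 of the 44 and by 41 of the 11147 genes, of which 10 were lower in KO (0.0897% of the genes tested). The median log2 change of the 44 genes was -0.45, with a median SE of 0.45. Their median log2 difference of replicate 2 minus replicate 1 was 0.68, against 0.25 over all genes tested. The median change of the 44 genes depended on the libraries kept: it was 0.032 without KO1 and -0.96 without KO2. With a library left out, replicate number is unbalanced between genotypes, so both values mix genotype with the difference by number. Within replicate 2 alone the median was -0.16. When replicate number joined genotype in the model (the number-adjusted fit), 0 of the 44 passed, while 75 genes (0.673%) did, and 26 of the 44 had an unadjusted p below 0.05 and a lower level in KO, against 4.93% of the genes tested. The lowest adjusted p of the 44 in that fit was 0.125, for Plk1, followed by 0.130 for Ccnf, 0.140 for Aurka and 0.146 for Ube2c. After quantile normalization, joined to that fit after the data had been seen, 185 of the 11147 genes tested passed. Among them were 2 of the 44, Ccnf (limma adjusted p 0.0490) and Plk1 (0.0496). In the authors' coordinates on mm9 these genes are Plk1 on chromosome 7 from 129302951 to 129313389 (plus strand), Ccnf on chromosome 17 from 24360177 to 24388354 (minus strand), Aurka on chromosome 2 from 172181696 to 172196006 (minus strand) and Ube2c on chromosome 2 from 164595429 to 164598402 (plus strand). An exact permutation test of 2 against 2 libraries cannot go below 0.33.

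Among the 11 kinases, phosphatases and cyclins of mitotic entry, 10 were lower in KO within both numbers, against 31.4% of all genes tested. In 3 of them (Cdk1, Ccnf and Aurka) both KO libraries were below both WT libraries, against 7.32% of all genes tested. Cdk1, the catalytic subunit that drives entry, was at 1.54 RPKM in KO1 and 2.67 in KO2, against 2.89 RPKM in WT1 and 3.07 in WT2. Its KO2 level was close to both WT levels, and KO1 stood apart. Ccna2, the A cyclin of S phase and early mitosis and the most abundant of all 45 genes on average, was at 6.89 and 16.7 RPKM in KO1 and KO2, compared with 11.9 and 18.7 RPKM in WT1 and WT2, and its mRNA model shares 863 bases with Exosc9 on the other strand. The B cyclins, which hold Cdk1 active until anaphase, followed the same order of libraries. Ccnb1 was at 2.86 and 6.83 RPKM in KO1 and KO2, against 5.83 and 7.46 RPKM in WT1 and WT2, and Ccnb2 at 1.35 RPKM in KO1 and 2.77 in KO2, against 2.37 RPKM in WT1 and 3.41 in WT2; both have a named pseudogene copy in the annotation, so their levels are uncertain. Ccnf, the F-box protein of the SCF ubiquitin ligase that limits centrosome duplication, was at 1.36 and 2.13 RPKM in KO1 and KO2, compared with 2.74 and 3.62 RPKM in WT1 and WT2, and had the largest change of the entry genes (log2 change -0.73, SE 0.35; number-adjusted limma SE 0.18, adjusted p 0.130).

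The Cdc25 phosphatases, which remove the inhibitory phosphates from Cdk1, differed more between replicate numbers than between genotypes. Cdc25b was at 1.12 and 5.02 RPKM in KO1 and KO2, against 2.10 and 7.18 RPKM in WT1 and WT2, and Cdc25c, much scarcer, at 0.316 RPKM in KO1 and 0.783 in KO2, against 0.499 RPKM in WT1 and 0.928 in WT2. In Cdc25b both replicate 2 libraries were above both replicate 1 libraries. Plk1, the polo kinase of centrosome maturation and cytokinesis, was at 2.61 and 5.37 RPKM in KO1 and KO2, compared with 4.51 and 8.86 RPKM in WT1 and WT2. Its ratio of KO to WT was 0.579 and 0.606 in the 2 replicate numbers, so it differed by nearly the same factor in each, while KO2 still lay above WT1 (log2 change -0.68, SE 0.50; number-adjusted limma SE 0.17, adjusted p 0.125). Plk4, the kinase that starts centriole duplication, was at 1.30 and 2.86 RPKM in KO1 and KO2, against 2.34 and 2.78 RPKM in WT1 and WT2, and was the single entry gene with KO2 not below WT2. Aurka, the Aurora kinase of centrosomes and spindle poles, was at 4.52 RPKM in KO1 and 7.42 in KO2, against 8.91 RPKM in WT1 and 10.7 in WT2, with no overlap between genotypes (log2 change -0.70, SE 0.33; number-adjusted limma SE 0.18, adjusted p 0.140). Nek2, which splits the centrosome pair, was at 1.34 and 3.52 RPKM in KO1 and KO2, compared with 3.14 and 3.96 RPKM in WT1 and WT2, with KO1 well below the others.

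**Figure D3:**
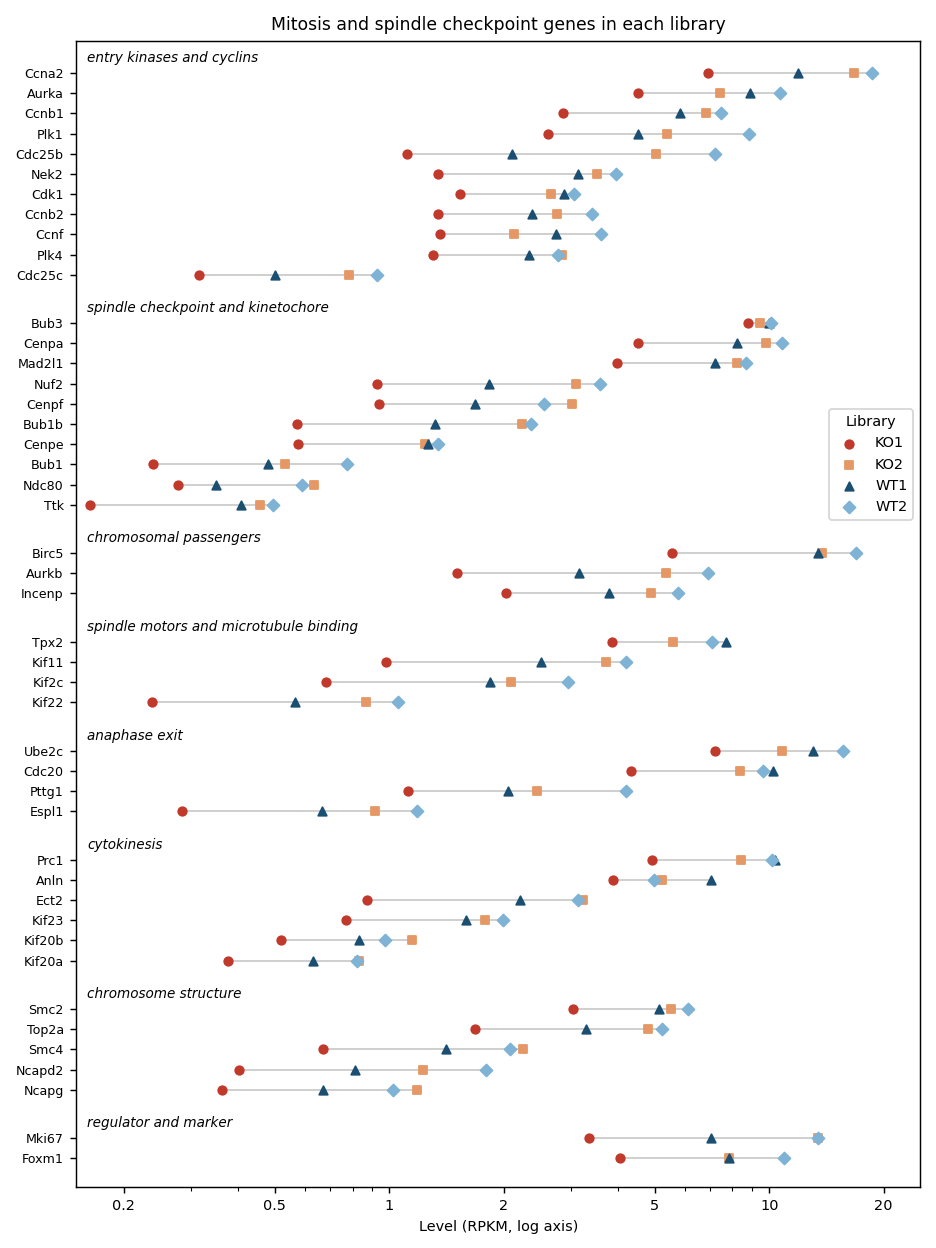
Level of each of the 45 genes in each library (RPKM, log axis), grouped by role and ordered by mean level within a role; red circles are KO1, orange squares KO2, dark triangles WT1 and light diamonds WT2, and grey lines span the 4 libraries. KO1 is the leftmost point in 45 of the 45 genes, and KO2 is right of WT1 in 34.

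Of the 10 genes of the spindle checkpoint and kinetochore, 9 were tested. Of these 9, 7 were lower in KO within both numbers, against 31.4% of all genes tested. Bub3, a WD-repeat protein that carries the Bub kinases to kinetochores, varied least of the 45 genes, at 8.81 and 9.48 RPKM in KO1 and KO2, against 9.99 and 10.1 RPKM in WT1 and WT2. The genotypes did not overlap for Bub3, yet the whole range was narrow (log2 change -0.13, SE 0.23, limma adjusted p 1). Its partners were scarcer and more variable. Bub1b, the checkpoint protein BubR1 that binds Cdc20, was at 0.570 RPKM in KO1 and 2.24 in KO2, against 1.32 RPKM in WT1 and 2.37 in WT2, and Bub1, the checkpoint kinase, at 0.239 and 0.532 RPKM in KO1 and KO2, compared with 0.478 and 0.776 RPKM in WT1 and WT2. Mad2l1, the Mad2 protein that closes around Cdc20, was at 3.97 and 8.23 RPKM in KO1 and KO2, against 7.22 and 8.67 RPKM in WT1 and WT2, with KO2 between the WT libraries. Ttk, the kinase Mps1 at the top of the checkpoint, ranged over 0.163 to 0.455 RPKM in KO and 0.407 to 0.493 RPKM in WT, below the level needed for the test.

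Cenpa, the histone H3 variant that marks the centromere, was at 4.52 RPKM in KO1 and 9.79 in KO2, against 8.23 RPKM in WT1 and 10.8 in WT2, high in KO2 and both WT libraries. Cenpe, a kinesin that moves chromosomes to the spindle equator, was at 0.574 and 1.24 RPKM in KO1 and KO2, compared with 1.26 and 1.34 RPKM in WT1 and WT2, with KO2 next to WT1. Cenpf, a large kinetochore protein of G2 and mitosis, was at 0.940 and 3.02 RPKM in KO1 and KO2, against 1.68 and 2.55 RPKM in WT1 and WT2, and its KO2 level was the highest of the 4, with the highest KO2 to WT2 ratio of the 45 genes. The Ndc80 complex forms the grip on the microtubule end, and its subunits did not move alike. Nuf2 was at 0.927 RPKM in KO1 and 3.11 in KO2, against 1.82 RPKM in WT1 and 3.59 in WT2, while Ndc80 ranged over 0.278 to 0.634 RPKM in KO and 0.351 to 0.589 RPKM in WT, with KO2 above WT2 and a log2 change of -0.04 (SE 0.41, limma adjusted p 1), the smallest of the 44.

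The 3 chromosomal passengers, which correct faulty attachments and then move to the midzone, were all lower within both numbers, and none separated the genotypes. Over all genes tested 31.4% were lower within both numbers, and 7.32% had both KO libraries below both WT libraries. Birc5 (survivin) was at 5.55 and 13.8 RPKM in KO1 and KO2, compared with 13.4 and 16.9 RPKM in WT1 and WT2, and showed the largest difference within replicate 1, -1.20 on the log2 scale. Aurkb, the kinase of the complex, was at 1.51 and 5.36 RPKM in KO1 and KO2, against 3.15 and 6.91 RPKM in WT1 and WT2, and Incenp, its scaffold, at 2.03 RPKM in KO1 and 4.89 in KO2, against 3.78 RPKM in WT1 and 5.75 in WT2. In each of the 3 genes KO2 was above WT1.

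The 4 spindle motors and microtubule-binding genes with a row were all lower within both numbers, against 31.4% of all genes tested. Tpx2, which activates Aurka and nucleates spindle microtubules, was at 3.85 and 5.58 RPKM in KO1 and KO2, compared with 7.71 and 7.06 RPKM in WT1 and WT2, with no overlap between genotypes and both WT libraries nearly level. Kif11, the kinesin that pushes the spindle poles apart, was at 0.983 and 3.71 RPKM in KO1 and KO2, against 2.50 and 4.21 RPKM in WT1 and WT2. Kif2c, a kinesin that takes microtubules apart at kinetochores, was at 0.681 RPKM in KO1 and 2.09 in KO2, against 1.84 RPKM in WT1 and 2.96 in WT2, the lowest ratio of KO1 to WT1 of the 45 genes. Kif22, a kinesin that pushes chromosome arms, was at 0.237 and 0.868 RPKM in KO1 and KO2, compared with 0.565 and 1.05 RPKM in WT1 and WT2, and has a named pseudogene copy. For Kif11, Kif2c and Kif22 the KO2 level was above WT1 and below WT2.

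All 4 genes of anaphase and exit were lower within both numbers, against 31.4% of all genes tested. Cdc20, the activator of the anaphase-promoting complex and the target of the checkpoint, was at 4.34 and 8.36 RPKM in KO1 and KO2, against 10.2 and 9.65 RPKM in WT1 and WT2. Its genotypes did not overlap, with KO1 far below the others and KO2 near WT2 (ratio 0.866), and its model overlaps Elovl1 by 16 bases on the other strand. Ube2c, the ubiquitin-conjugating enzyme that works with that complex, was at 7.22 RPKM in KO1 and 10.8 in KO2, against 13.00 RPKM in WT1 and 15.6 in WT2, and here each KO library was lower by a wide step (log2 change -0.66, SE 0.30; number-adjusted limma SE 0.17, adjusted p 0.146). Pttg1, the securin that keeps separase shut, was at 1.12 and 2.45 RPKM in KO1 and KO2, compared with 2.05 and 4.202 RPKM in WT1 and WT2, with WT2 standing above all others and ratios of 0.547 and 0.583 within the numbers. Espl1, the separase itself, was at 0.284 and 0.916 RPKM in KO1 and KO2, against 0.664 and 1.18 RPKM in WT1 and WT2, with KO2 between the WT libraries.

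The 6 cytokinesis genes split by replicate number. All 6 were lower in KO1 than in WT1, but 4 had KO2 at or above WT2. Over all genes tested 61.6% were lower in KO1 than in WT1, 47.3% in KO2 than in WT2, and 31.4% within both numbers. Prc1, which bundles the midzone microtubules, was at 4.90 RPKM in KO1 and 8.45 in KO2, against 10.3 RPKM in WT1 and 10.2 in WT2, with no overlap, and Kif23, the midzone kinesin of centralspindlin, at 0.768 and 1.79 RPKM in KO1 and KO2, compared with 1.59 and 1.99 RPKM in WT1 and WT2; these were the 2 genes lower within both numbers. Anln (anillin), a scaffold of the contractile ring, was at 3.89 and 5.21 RPKM in KO1 and KO2, against 7.01 and 4.98 RPKM in WT1 and WT2, the only one of the 44 tested genes with a negative difference of replicate 2 minus replicate 1 in the fit (-0.04, SE 0.22). Ect2, the exchange factor that switches on RhoA at the cleavage site, was at 0.875 RPKM in KO1 and 3.24 in KO2, against 2.21 RPKM in WT1 and 3.14 in WT2, with KO1 well below the others. Kif20a, a kinesin that brings the passengers to the midzone, was at 0.376 and 0.834 RPKM in KO1 and KO2, compared with 0.631 and 0.821 RPKM in WT1 and WT2. Its model overlaps Cdc23 by 1595 bases and Brd8 by 187 bases on the other strand, so its value is uncertain. Kif20b, a related kinesin of late cytokinesis, was at 0.520 and 1.14 RPKM in KO1 and KO2, against 0.830 and 0.974 RPKM in WT1 and WT2, with KO2 the highest library.

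Of the 5 genes that shape mitotic chromosomes, 3 were lower within both numbers, against 31.4% of all genes tested. Top2a, the topoisomerase that untangles sister chromatids, was at 1.68 RPKM in KO1 and 4.79 in KO2, against 3.29 RPKM in WT1 and 5.21 in WT2, with KO2 close to WT2. Smc2 and Smc4 are the paired ATPases of both condensins. Smc2 was at 3.05 and 5.52 RPKM in KO1 and KO2, compared with 5.12 and 6.11 RPKM in WT1 and WT2, and Smc4 at 0.670 and 2.25 RPKM in KO1 and KO2, against 1.41 and 2.08 RPKM in WT1 and WT2, with KO2 above WT2 for Smc4. The condensin I subunits differed in the same way. Ncapd2 was at 0.402 RPKM in KO1 and 1.22 in KO2, against 0.811 RPKM in WT1 and 1.80 in WT2, lower within both numbers, and Ncapg at 0.362 and 1.18 RPKM in KO1 and KO2, compared with 0.669 and 1.02 RPKM in WT1 and WT2, with KO2 the highest of the 4 libraries; the model of Ncapg overlaps Lcorl by 105 bases on the other strand.

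Foxm1, the forkhead factor that drives late cell cycle genes, was at 4.04 and 7.81 RPKM in KO1 and KO2, against 7.82 and 10.9 RPKM in WT1 and WT2. Its KO2 level was just short of WT1, so the genotypes did not overlap by a narrow margin, and its model shares 377 bases with 4933413G19Rik on the same strand, for which reads could be split. Mki67, the source of the Ki-67 proliferation marker, was at 3.36 RPKM in KO1 and 13.45 in KO2, against 7.01 RPKM in WT1 and 13.4 in WT2, so that KO2 and WT2 were level while the ratio of KO1 to WT1 was 0.478. In Mki67 both replicate 2 libraries were well above both replicate 1 libraries.

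For 8 of the 45 genes the table holds more than 1 RefSeq transcript, and the values above are their sums. Birc5 was mainly NM_009689, at 4.71 and 12.3 RPKM in KO1 and KO2, compared with 11.8 and 14.3 RPKM in WT1 and WT2; the other transcript, NM_001012273, was at 0.839 and 1.46 RPKM in KO1 and KO2, against 1.63 and 2.66 RPKM in WT1 and WT2, and had the lower ratio within replicate 2. The 5 Tpx2 transcripts share 1 locus and did not move alike in replicate 2. NM_028109 was at 1.13 RPKM in KO1 and 1.99 in KO2, against 2.48 RPKM in WT1 and 1.89 in WT2, and NM_001141977 at 0.976 and 1.72 RPKM in KO1 and KO2, compared with 2.13 and 1.63 RPKM in WT1 and WT2, so KO2 was slightly above WT2 in both. NM_001141975, in contrast, was at 0.588 and 0.647 RPKM in KO1 and KO2, against 1.09 and 1.16 RPKM in WT1 and WT2, with no overlap, as were NM_001141976 and NM_001141978. In Kif20a NM_001166407 was at 0.0483 RPKM in KO1 and 0.132 in KO2, against 0.336 RPKM in WT1 and 0.251 in WT2, lower in both KO libraries, while NM_009004 was at 0.211 and 0.575 RPKM in KO1 and KO2, compared with 0.242 and 0.466 RPKM in WT1 and WT2. NM_001166406 was the other way round within both numbers, at 0.116 and 0.128 RPKM in KO1 and KO2, against 0.0538 and 0.104 RPKM in WT1 and WT2. How the authors' program divided reads between such overlapping transcripts was not tested.

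The medians were close for genes with and without a CHR in the window. The 29 genes with a CHR had a median log2 difference of -0.72 for KO1 minus WT1 and -0.16 for KO2 minus WT2, and the 8 genes without one had -0.75 and -0.13. Of the 29 genes, 22 were lower within both numbers, and of the 8, 7 were, against 31.4% of all genes tested. For CCAAT, 24 of 28 genes with a match and 5 of 9 without were lower within both numbers, with medians of -0.73 and -0.15 for those with a match and -0.70 and -0.07 for those without. These are counts of small sets with no test.

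Other genes of the same pathways, none of them among the 46, were counted in 7 lists. Of 150 genes named there 131 were tested. Of these, 61 (46.6%) were lower within both numbers and 13 higher, against 31.4% and 22.5% of all genes tested. None passed either limma fit, against 0.0% of all genes tested with genotype alone and 0.673% in the number-adjusted fit. The list with the largest median difference was that of other passenger and cytokinesis genes, where 4 of 5 tested were lower within both numbers, with median log2 differences of -0.99 for KO1 minus WT1 and -0.20 for KO2 minus WT2. Cdca8 (borealin, the remaining passenger subunit) was at 2.94 and 7.07 RPKM in KO1 and KO2, against 6.38 and 9.90 RPKM in WT1 and WT2, and Racgap1, the partner of Kif23 in centralspindlin, at 3.02 RPKM in KO1 and 9.02 in KO2, against 6.54 RPKM in WT1 and 10.4 in WT2. Rhoa, a general cytoskeletal GTPase and the most abundant of that list, was at 144.2 and 130.3 RPKM in KO1 and KO2, compared with 167.3 and 125.6 RPKM in WT1 and WT2, with overlapping genotypes.

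Of the 29 other kinetochore and centromere genes tested, 19 were lower within both numbers and 0 higher, against 31.4% and 22.5% of all genes tested. The medians were -0.46 and -0.10 in replicates 1 and 2. Pmf1, of the Mis12 complex, was at 4.45 and 8.23 RPKM in KO1 and KO2, against 7.09 and 12.3 RPKM in WT1 and WT2, lower within both. Mis12 itself, the most abundant of the list, was at 10.2 RPKM in KO1 and 10.7 in KO2, against 12.1 RPKM in WT1 and 9.09 in WT2, and Zwint, a partner of the kinetochore scaffold, at 9.45 and 5.05 RPKM in KO1 and KO2, compared with 10.9 and 3.88 RPKM in WT1 and WT2; in both KO2 was above WT2. Of the 28 other spindle motors and microtubule-binding genes, 19 were lower within both numbers and 0 higher, with medians of -0.49 and -0.16. The most abundant, Ndel1, a dynein partner used in many cell functions, was at 33.05 and 24.6 RPKM in KO1 and KO2, against 31.3 and 26.1 RPKM in WT1 and WT2, and its relative Nde1 at 10.7 RPKM in KO1 and 10.7 in KO2, against 13.04 RPKM in WT1 and 13.4 in WT2, without overlap for Nde1. Psrc1, a spindle protein, was at 14.2 and 15.00 RPKM in KO1 and KO2, compared with 17.6 and 16.3 RPKM in WT1 and WT2.

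The other 4 lists stood nearer to all genes tested. In them 21.4% to 33.3% were lower within both numbers, against 31.4% of all genes tested, of which 22.5% were higher. Of 15 anaphase-promoting complex subunits and partners, 5 were lower and 2 higher within both numbers (medians -0.22 and 0.02). The most abundant, Anapc5, had 15.9 and 22.5 RPKM in KO1 and KO2, against 15.8 and 24.1 RPKM in WT1 and WT2. Cdc16 had 10.6 RPKM in KO1 and 16.7 in KO2, against 11.4 RPKM in WT1 and 17.1 in WT2, and Anapc2, the cullin subunit, had 10.9 and 14.5 RPKM in KO1 and KO2, compared with 11.2 and 16.2 RPKM in WT1 and WT2; the genotypes overlapped in all 3. Of 14 other condensin and cohesin genes, 3 were lower and 2 higher (medians -0.27 and 0.15), and Rad21, the cleavable cohesin subunit, was at 13.9 and 29.9 RPKM in KO1 and KO2, against 19.00 and 27.98 RPKM in WT1 and WT2. Wapal, which releases cohesin, was at 6.11 RPKM in KO1 and 5.34 in KO2, against 6.32 RPKM in WT1 and 3.65 in WT2, and Ncaph2, of condensin II, at 3.41 and 6.42 RPKM in KO1 and KO2, compared with 4.37 and 7.16 RPKM in WT1 and WT2. Of 18 other mitotic kinases and phosphatases, 6 were lower and 6 higher (medians -0.09 and 0.02). Its most abundant genes also act outside mitosis. Plk2 had 89.04 and 42.9 RPKM in KO1 and KO2, against 77.8 and 32.7 RPKM in WT1 and WT2. Ensa, an inhibitor of the phosphatase PP2A, had 38.9 RPKM in KO1 and 40.3 in KO2, against 34.4 RPKM in WT1 and 36.2 in WT2, and Nek7 had 24.4 and 19.5 RPKM in KO1 and KO2, compared with 19.8 and 14.6 RPKM in WT1 and WT2. Each of these 3 was higher in KO within both numbers. Of 22 regulators of late cell cycle transcription, 5 were lower and 3 higher (medians -0.27 and 0.03). Rbbp4, a histone chaperone in the MuvB core, was at 13.6 and 22.2 RPKM in KO1 and KO2, against 17.8 and 21.6 RPKM in WT1 and WT2, and the repressor-type factor E2f4 was at 13.9 RPKM in KO1 and 10.4 in KO2, against 13.8 RPKM in WT1 and 13.4 in WT2. E2f6, another repressor of the family, was at 12.7 and 9.79 RPKM in KO1 and KO2, compared with 12.3 and 10.6 RPKM in WT1 and WT2. Mybl2 (B-Myb), named here after its values were seen, was at 0.265 and 0.754 RPKM in KO1 and KO2, against 0.625 and 0.948 RPKM in WT1 and WT2.

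**Figure D4:**
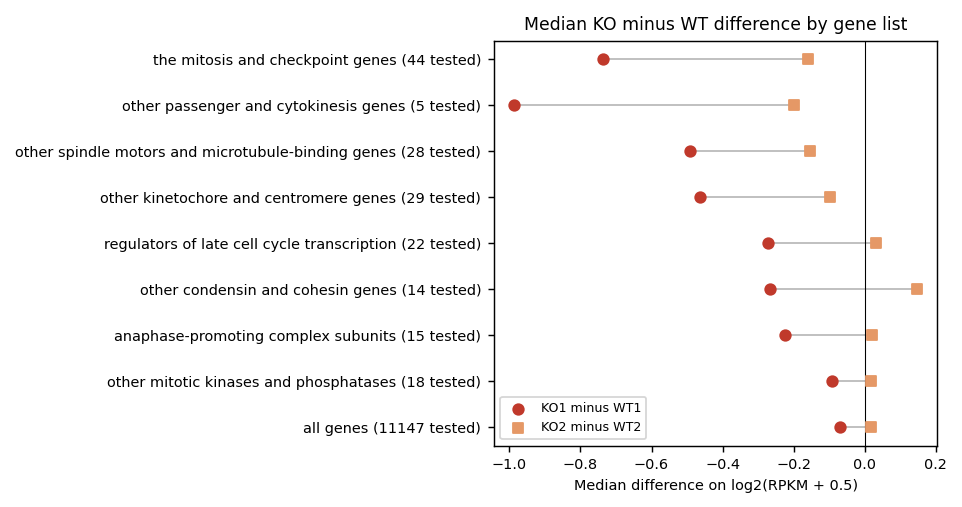
Median KO minus WT difference on log2(RPKM + 0.5) within replicate 1 (red circles) and within replicate 2 (orange squares), for the mitosis and checkpoint genes, the 7 lists of other pathway genes and all genes tested, with the number tested in brackets. The mitosis and checkpoint genes stand at -0.74 and -0.16 and all genes tested at -0.07 and 0.02.

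The libraries also differed by replicate number and in other cell types. In the number-adjusted limma fit, 32 of the 44 genes were higher in replicate 2 than in replicate 1 and 0 lower. Of the 11147 genes tested, 35.8% were higher and 1331 were lower. The count of mitosis and checkpoint genes that differed by number was 18 with median-ratio scaling, 14 with quantile normalization and 17 with no filter on low values. No share over all genes was worked out for these settings, so these counts cannot be set against the 35.8%. The median ratio of replicate 2 to replicate 1 was 2.33 in KO and 1.42 in WT over the 45 genes. That ratio was not worked out over all genes. KO2 was above KO1 for 45 of the 45 genes, against 70.2% of all genes tested, and WT2 was above WT1 for 41, against 63.2%. Among the 44 genes the largest differences were those of Cdc25b (log2 1.67, SE 0.18, limma adjusted p 3.87e-05), Mki67 (1.37, SE 0.24, adjusted p 0.00230) and Aurkb (1.28, SE 0.19, adjusted p 0.000331). The authors' tables also differed by number, with 26886 transcript rows for replicate 1 and 21136 for replicate 2. The number of mapped reads ran in the same order of libraries as the summed level of the 45 genes, lowest in KO1, then WT1, then KO2, then WT2; its part in the result was not tested.

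All 12 fibroblast markers were detected, and they added up to 3220 and 3383 RPKM in KO1 and KO2, against 2974 and 3386 RPKM in WT1 and WT2. Within both numbers 3 of the 12 were lower in KO and 7 were higher, against 31.4% and 22.5% of all genes tested. Single markers also differed by replicate number, 8 being higher and 3 lower in replicate 2 in the number-adjusted limma fit. Of all 11147 genes tested, 3992 were higher and 1331 lower in that fit. Lum, a matrix proteoglycan, was at 1.27 and 104.6 RPKM in KO1 and KO2, against 0.718 and 108.2 RPKM in WT1 and WT2, and S100a4 was at 313.1 and 45.75 RPKM in KO1 and KO2, against 277.4 and 35.6 RPKM in WT1 and WT2. Blood and macrophage markers added up to 8.51 and 88.5 RPKM in KO1 and KO2, against 62.6 and 181.3 RPKM in WT1 and WT2, in the same order of libraries as the mitosis and checkpoint genes. Of their 12 tested genes 11 were lower in KO within both numbers, against 31.4% of all genes tested. Cd14, Fcer1g, C1qc, Laptm5 and Cd52 fell in the number-adjusted limma fit (adjusted p 0.00774 to 0.0406), which 0.673% of all genes tested passed in either direction. None of the 14 was at 0. Ptprc, which marks all white cells, ranged over 0.0249 to 0.289 RPKM in KO and 0.144 to 0.423 RPKM in WT. Epithelial markers added up to 7.96 and 6.28 RPKM in KO1 and KO2, against 18.6 and 18.8 RPKM in WT1 and WT2, and Krt19 (adjusted p 0.00186) and Krt7 (adjusted p 0.0227) fell in the same fit. Of the 4 tested, 3 were lower within both numbers and 0 higher, against the 31.4% and 22.5% of all genes tested. Most of the difference in the sum was Krt19, at 3.56 and 2.70 RPKM in KO1 and KO2, against 13.4 and 9.78 RPKM in WT1 and WT2, while Krt18 was at 1.97 and 0.939 RPKM in KO1 and KO2, against 1.81 and 2.58 RPKM in WT1 and WT2. Epcam and Cdh1, which define epithelium, were at 0.151 RPKM or less in every library. The part of these cell types, and of the markers' difference by number, in the result was not tested.

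Endothelial markers added up to 0.611 and 2.38 RPKM in KO1 and KO2, against 1.63 and 1.89 RPKM in WT1 and WT2, and Pecam1 and Cdh5 were near 0. Skeletal muscle markers added up to 86.5 and 61.4 RPKM in KO1 and KO2, against 153.2 and 56.3 RPKM in WT1 and WT2, mainly through Acta1 and Des. Neuronal markers added up to 47.3 and 34.6 RPKM in KO1 and KO2, against 32.1 and 17.3 RPKM in WT1 and WT2. Most of this was Tubb3, a beta tubulin that rose in KO in the number-adjusted limma fit (adjusted p 0.0123), while Rbfox3 was listed at 0 in KO1 and WT1 and at 0.0133 RPKM or less in KO2 and WT2, values that need not mean low expression.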

How the data were processed

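RNA libraries of 4 cultures, 2 Lsh KO and 2 WT, were used. Per the labels' protocols, RNA was treated with DNase and RiboMinus, selected on poly-T beads and sequenced on a Genome Analyzer IIx. The authors deposited RPKM values per RefSeq transcript; the deposited readme names Cufflinks, and the submitters' processing notes name Partek and the build mm9. For the aligner, strand and reads with several matches, the entry is "not given in the sources used here". Without strand, overlapping genes cannot be told apart. Rows for replicate 2 were fewer, 21136 against 26886 for replicate 1, so the deposited tables were not made alike for both numbers.

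Rows were summed per gene symbol, and rows without a symbol (1427 for replicate 1, 862 for replicate 2) were left out. Mapped reads were worked out from the whole-read steps of 16 to 37 single-exon olfactory receptor loci per library, where 100% of the values were whole within 0.02 of a read. A gene was tested if 2 or more libraries reached 0.5 RPKM; log2(RPKM + 0.5) was fitted in limma 3.58.1 (R 4.3.3), with lmFit and then eBayes with trend and robust variance, two-sided, genotype as the only term, Benjamini-Hochberg over all 11147 genes and a threshold of 0.05. A fit that adds the replicate number was the alternative; it keeps 1 residual degree of freedom, so its p-values rest largely on the variance shared between genes (prior degrees of freedom 9.7). Both kinds of p-value describe the spread of these 4 libraries, which may be technical. On simulated data for 11147 genes, 100 genes were changed by 1 and 100 by 2 on the log2 scale. The genotype-only fit recovered 0 of 100 at either size. The fit with replicate number recovered 98 and 100 of 100 with 43 false calls. These counts hold for that simulation only. How well either fit recovers changes in the measured libraries was not tested.

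The members and gene lists were chosen with earlier results of these data known, so no set test and no p over the lists is given. All 45 genes could be named, each with its value in every library where its mean reached 0.5 RPKM. From each pathway list the 3 genes with the highest mean were named, with Hells as check and Actb for reference. Gapdh and Mybl2 were named with values outside this rule, and cell type markers come from fixed lists. Motifs were searched in RefSeq promoter windows of GRCm38.p6, matched by symbol. Tables were handled in Python 3.11.15 with pandas 2.3.3. Alternatives were other pseudocounts, filters and scalings, the most abundant transcript in place of the sum, leaving out each library, and the replicate number as a block. The result of 1 marker list is not reported here.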

Additional observations from a re-analysis of the deposited data

How the results depend on the processing

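With only 2 libraries per genotype, much of what is described depends on single libraries. The median log2 change of the 44 genes, -0.45, ran from -0.96 without KO2 to 0.032 without KO1. Without KO1 24 of the 44 genes stood on the other side of 0, as did 5 without WT2. Each of these comparisons leaves replicate number unbalanced between genotypes, so they mix genotype with the difference by number. The median within replicate 2 alone was -0.16. Leaving out a library pools the spread, so the lone library of a genotype is taken to vary like the others. The number of genes with both KO libraries below both WT libraries, 10, ran from 10 to 45 when 1 library was left out (45 without KO2, 35 without WT1). Separation is easier to reach with a library fewer, and no share over all genes was worked out for those counts. With no library left out, the number was 22 with median-ratio scaling (7.71% of the genes tested) and 24 with quantile normalization (8.91%). The cause was not tested. Neither scaling moved the median change of all genes by more than 0.1. The count lower within both numbers, 35 of 45, was 30 to 36 of the 37 to 45 genes counted under the other pseudocounts, filters, scalings and transcript choice. Over all genes tested in the same settings the share ran from 27.1% to 31.46%. Genes and mitosis genes called with genotype alone stayed at 0 to 0 under every alternative of that fit, leaving out each library included.

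With the replicate block, 75 genes and none of the 44 passed. With the block and another choice together, alternatives added after seeing the data, the genes called were 40 at a pseudocount of 0.1, 59 at a pseudocount of 1, 70 with a filter at 1 RPKM, 145 with median-ratio scaling, 185 with quantile normalization, 3 with the most abundant transcript per gene and 0 with no filter. Of the 44 genes, 2 passed with the block and quantile normalization, Ccnf (limma adjusted p 0.0490) and Plk1 (0.0496), and 0 in the other 6. Differences between replicate numbers, 32 genes, were 17 with no filter, 18 with median-ratio scaling and 14 with quantile normalization, settings for which no share over all genes was worked out. The labels do not say that numbers pair the libraries; with only 2 pairs, libraries of like number deviated together (correlation across genes 0.88). Leaving out a library was not run with the block, which then keeps no residual degree of freedom, nor for counts within numbers. Depth limits the genes below 1 RPKM most.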
